A study of Mus musculus with 17 samples.

Results

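Ras-transformed mouse embryonic fibroblasts without Usp28 (-/-) were compared with Ras-transformed fibroblasts that kept 1 of the 2 alleles (+/-), at the level of RNA. The comparison rests on 4 of the 17 libraries of the study, 2 for each genotype. Fibroblasts came from C57bl/6 embryos at E13.5, and all groups were immortalized with a retrovirus carrying a short hairpin RNA against p19ARF. The -/- and +/- groups also received activated HRas and a GFP vector. The same table holds a Ras +/+ group with HRas and GFP, and a Ras +/+ group with HRas and a USP28 vector in place of GFP. A second set of immortalized cells without HRas covers the 3 genotypes with 3 libraries each. The labels do not say how many embryos or clones a group stands for, nor whether the 2 Ras libraries of a group are separate cultures. The deposited tables hold comparisons with +/+ and no values for single libraries. Each level below is thus a group level in RPM (reads per 1000000 of the group's depth as scaled in the deposited values), rebuilt from the -/- or +/- comparison with +/+. The p-values below therefore measure a spread between libraries that may be technical.

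Usp28 is a deubiquitinase, an enzyme that removes ubiquitin chains from other proteins. One of its known partners is Fbw7 (gene Fbxw7), the substrate-recognition subunit of an SCF ubiquitin ligase that marks Myc, Jun, Notch proteins and cyclin E for degradation. The study's title names a dual regulation of Fbw7 and of oncogenic transformation by Usp28. Ubiquitin ligases and deubiquitinases act on protein, and RNA levels report their substrates only indirectly.

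The scaled depth of each group (both libraries together, in units of 1000000 reads) was 13.95 for Ras -/-, 13.225 for Ras +/-, 11.36 for Ras +/+ and 13.425 for the USP28 group. These depths were fitted to the steps of the low levels and are not counts of the reads sequenced. Usp28 itself was at 14.8 RPM in -/-, 18.6 RPM in +/-, 26.5 RPM in +/+ and 26.4 RPM with USP28. Its log2 difference between -/- and +/- was -0.33 (SE 0.32, adjusted p = 0.515, Wald test with Benjamini-Hochberg adjustment), which did not pass the test. The labels do not say which exons were deleted, so a total over the gene does not check the -/- label. Hras stood at 100.4 RPM in -/- and 69.9 RPM in +/- (0.52, SE 0.30, adjusted p = 0.208, same test). Genes of the sex chromosomes differed. Xist, the RNA that silences 1 X chromosome in female cells, was at 0.215 RPM in -/-, 25.5 RPM in +/-, 336 RPM in +/+ and 323 RPM with USP28. Eif2s3y, a Y-linked translation factor gene, was at 22.4 RPM in -/-, 0.151 RPM in +/-, 0 RPM in +/+ and 0.0745 RPM with USP28. Ddx3y, a Y-linked RNA helicase gene, was at 57.5 RPM in -/-, 12.4 RPM in +/-, 10.7 RPM in +/+ and 13.3 RPM with USP28. Its +/- level was thus near that of the groups with Eif2s3y at or near 0. All 6 members of the sex-linked list were called, 4 higher and 2 lower in -/-. Embryo of origin, culture and Usp28 genotype cannot be told apart in these groups. Tsix overlaps Xist, and the strand used in counting is not given, so the 2 cannot be separated. Mitochondrial transcripts made up 0.979% of the reads in -/-, 1.23% in +/-, 1.85% in +/+ and 1.81% with USP28. Of the fibroblast markers, Vim, an intermediate filament gene, was at 3500.5 RPM in -/- and 3555 RPM in +/-. Col1a1, a type I collagen gene, was at 7526 and 7146 RPM. Thy1 and Fap, of the same list, were near 0 in both groups, at 0.502 and 0 RPM and at 0.358 and 0.0757 RPM.

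Of 33440 genes in the table, 16107 had a mean level over both groups of at least 1 RPM and were tested. The gene just inside this limit was Kcnh6 at 1.00 RPM and the gene just outside was Dusp13 at 0.9999 RPM. Below it, 7846 genes had a read in at least 1 of the groups and 9487 had none. A gene at 0 in 1 group passed the limit only through the other group, so counts over lists of tested genes describe these cells and are no evidence by themselves. An adjusted p under 0.05 was reached by 3939 genes (24.5% of those tested), of which 2052 were higher in -/- (12.7%) and 1887 were lower (11.7%). These shares are the background for the Ras list counts below. For list counts in immortalized cells the shares were 1.33% higher and 3.25% lower of 17007 genes tested there. In the Ras set the median log2 difference of all tested genes was -0.02. Among the called genes the median absolute log2 difference was 1.49 for the higher and 1.5 for the lower, and the smallest was 0.74. Differences of more than 4 on the log2 scale were found for 325 higher and 348 lower genes. A group was at 0 reads for 78 called genes in -/- and for 78 in +/-. The standard errors given are implied by the dispersion behind the deposited p-values (a coefficient of variation of 20.3% here) and by read numbers. No gene has an error of its own here, and a gene that varies more than the typical gene has an error that is too small.

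**Figure D1:**
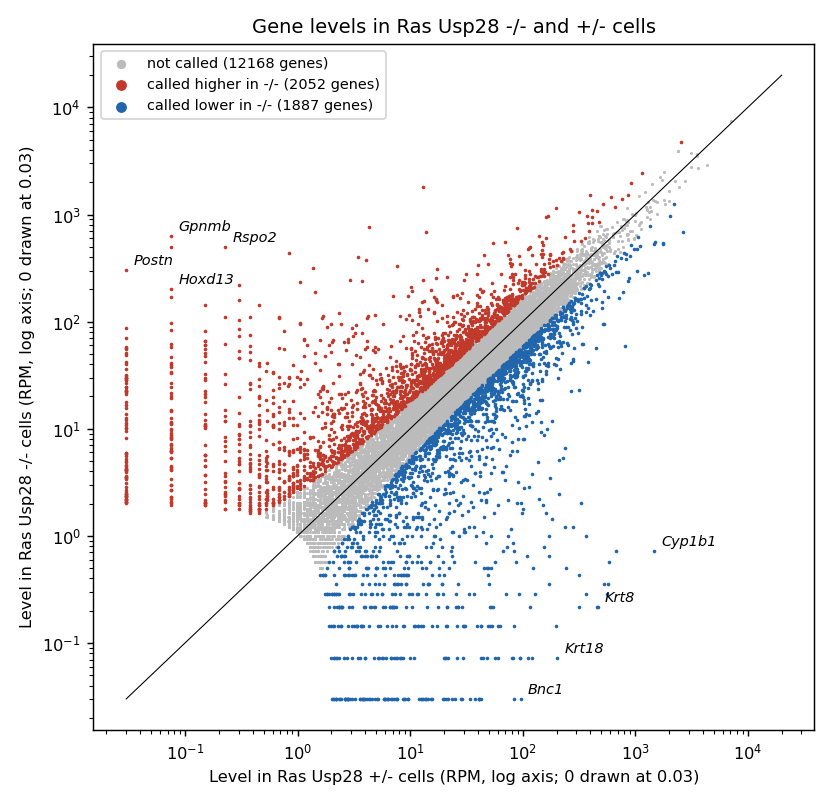
Level of each tested gene in Ras Usp28 +/- cells (horizontal, RPM, log axis) against Ras Usp28 -/- cells (vertical, RPM, log axis), with levels of 0 drawn at 0.03. Red points are the 2052 genes called higher in -/-, blue points the 1887 called lower and grey points the rest, and the line marks equal levels. Postn and Gpnmb lie near the upper left edge, and Krt8, Krt18 and Cyp1b1 near the lower right.

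Among the 12 largest rises, Postn, a matrix protein of fibroblasts, was at 300.4 RPM in -/- against 0 RPM in +/-, 0.529 RPM in +/+ and 0.149 RPM with USP28. Against a floor of 3 reads summed over the +/- libraries, Postn was at least 1324-fold higher in -/-. Gpnmb, a transmembrane glycoprotein gene, was at 628 RPM in -/-, 0.0756 RPM in +/-, 153 RPM in +/+ and 226 RPM with USP28. Its +/- level is a count of 1 read, and the log2 ratio of 13.02 carries a counting interval of 10.54 to 18.32. Plpp3, a lipid phosphate phosphatase gene, was at 492 RPM in -/- and 0.0757 RPM in +/- (log2 ratio 12.67, 95% counting interval 10.19 to 17.97), with 2.35 RPM in +/+. Intervals and floors of this kind cover counting error only. Postn and Plpp3 were thus high only in the -/- group among the 4 Ras groups, while Gpnmb was low only in the +/- group. Adm, the gene of the peptide hormone adrenomedullin, was at 0 RPM in +/- and at 55.6 RPM in -/-, 56.6 RPM in +/+ and 67.4 RPM with USP28 (at least 245-fold higher in -/- than in +/-). Cyp26b1, which degrades retinoic acid, was at 57.0 RPM in -/-, 0 RPM in +/- and 3.92 RPM in +/+ (at least 251-fold higher in -/-). Iigp1, an interferon-induced GTPase gene, was at 50.5 RPM in -/-, 0 RPM in +/-, 0.440 RPM in +/+ and 0.298 RPM with USP28 (at least 223-fold higher). The remaining genes of this group, Hoxa11os, Hoxd11, Hoxd13, Tfap2a, Rspo2 and Bmp2, are taken up below with their families, except for Hoxa11os, an RNA antisense to Hoxa11 whose reads cannot be separated from it without strand.

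The largest falls included keratins and other genes on the epithelial and mesothelial lists below. Bnc1, a zinc finger gene of such cells, was at 96.3 RPM in +/- and at 0 RPM in -/-, 0.0882 RPM in +/+ and 0.0745 RPM with USP28 (at least 448-fold lower in -/- than in +/-). Cyp1b1, a cytochrome P450 gene, was at 1464 RPM in +/-, 0.717 RPM in -/-, 221 RPM in +/+ and 143 RPM with USP28, a log2 difference of -10.93 (SE 0.53). Ptgis, the prostacyclin synthase gene, was at 528 RPM in +/-, 0.358 RPM in -/- and 0.177 RPM in +/+ (-10.39, SE 0.68). Bnc1 and Ptgis were thus high in the +/- group alone among the 4 Ras groups. Cxcl1, a neutrophil chemokine gene, was at 84.0 RPM in +/-, 0 RPM in -/-, 13.3 RPM in +/+ and 11.9 RPM with USP28 (at least 391-fold lower in -/-). Zcchc3, a zinc finger gene, was listed at 0 in -/- and at 42.7 RPM in +/-, 20.1 RPM in +/+ and 19 RPM with USP28 (at least 199-fold lower). Wnt10a, a Wnt ligand gene, was at 0 RPM in -/-, 41.0 RPM in +/- and 15.1 RPM in +/+ (at least 191-fold lower). These 3 genes had reads in every Ras group except -/-.

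The most abundant called genes follow. Thbs1, the gene of the matrix protein thrombospondin 1, was at 4707 RPM in -/- and 2539.9 RPM in +/- (0.89, SE 0.29), with 7746 RPM in +/+. Hsp90b1, a chaperone gene of the endoplasmic reticulum, was at 1972 RPM in -/- and 919 RPM in +/- (1.10, SE 0.29). Col1a2, Tpm1 and Cald1, a collagen gene and 2 genes of actin-binding proteins, were higher by 1.06, 0.82 and 0.87 on the log2 scale. Igfbp4, which binds insulin-like growth factors, was at 685 RPM in -/- and 2630.4 RPM in +/-, but at 11.7 RPM in +/+ (-1.94, SE 0.29). Lgals1, a galectin gene, and Ahnak, a large scaffold protein gene, were lower by -0.83 and -1.05. Cmss1 and Filip1l overlap on chromosome 16 and had near-equal levels (545 and 533 RPM in -/-, 1782 and 1772 RPM in +/-), so they may share reads and their values are uncertain. Thbs1, Col1a2, Hsp90b1, Tpm1, Cald1, Lgals1 and Ahnak lost the call with 2 times the dispersion, and Col1a2, Hsp90b1, Cald1, Lgals1 and Ahnak also lost it with folds centred on chromosome neighbours.

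**Figure D2:**
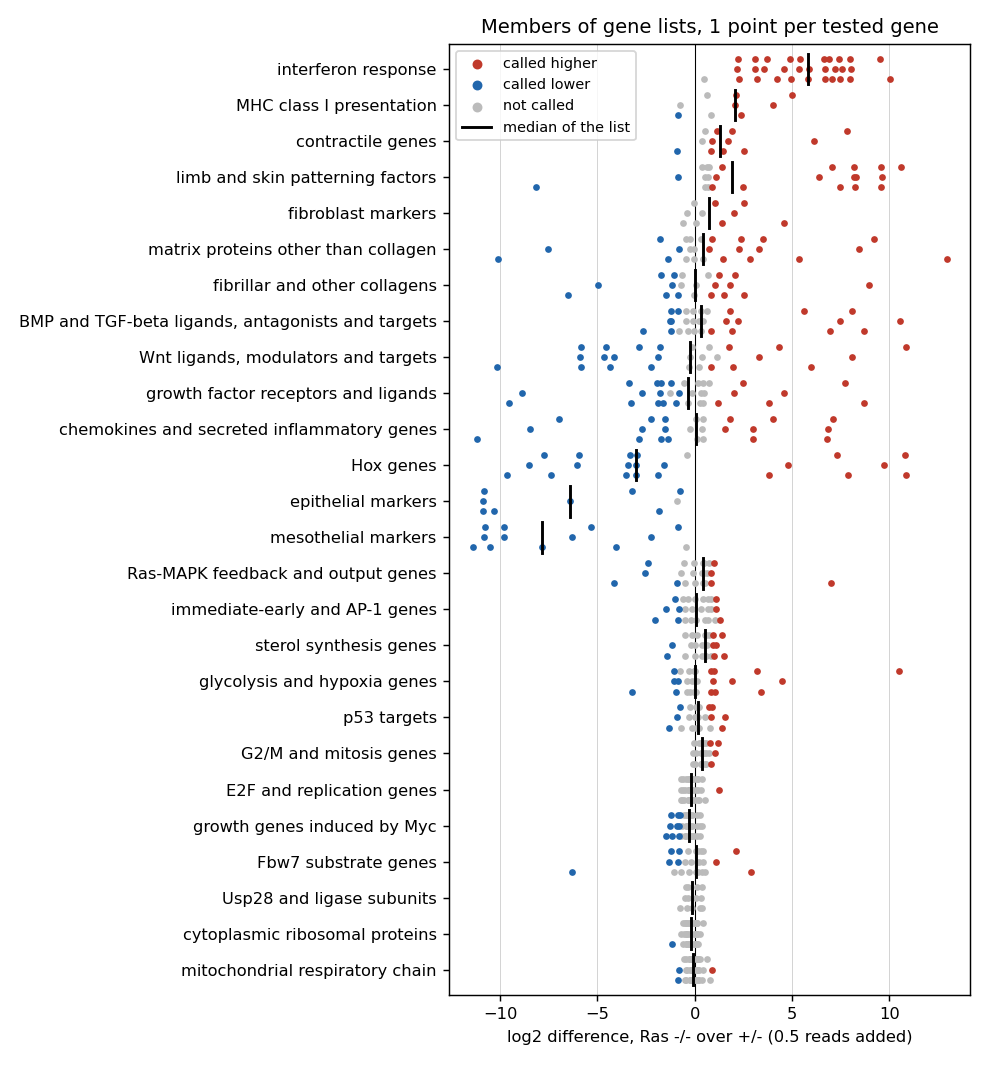
log2 difference between Ras -/- and Ras +/- (0.5 reads added) for the tested members of 26 gene lists, 1 point per gene, with red for called higher, blue for called lower, grey for not called and a black bar at the median. Interferon response genes lie to the right of 0 in every case, mesothelial and epithelial markers to the left, and ribosomal, respiratory chain and Usp28 ligase genes near 0.

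Interferon response genes rose together in -/- cells. Type I interferons signal through a receptor to a complex that includes Stat2 and Irf9 and binds a DNA element in the promoters of antiviral genes, and the products include RNA sensors, RNA-degrading systems and the ubiquitin-like protein Isg15. Of 31 tested members of the list, 30 were called higher and 0 lower, against 12.7% and 11.7% of all tested genes, and 1 of the 32 members was under the level limit. The list's median log2 difference was 5.83, or 5.40 with genes at 0 set to their bound, against -0.02 for all genes. Summed over the list, the level was 2186 RPM in -/-, 139.6 RPM in +/-, 238 RPM in +/+ and 289 RPM with USP28. The sum was thus lowest in +/- and highest in -/-, and for 26 of the 31 genes the +/+ level lay between the levels of -/- and +/-.

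The promoters of 3 members with high levels in -/- are given here because they carry the recurring element of this family. They come from RefSeq's GRCm38.p6 annotation, run from 250 bases before to 50 bases after the start of the gene, and are written 5′ to 3′ on the gene's strand. Capitals mark matches to GAAANNGAAA or its reverse complement, with overlapping matches merged. Bst2 lies at chr8:71537423-71537722 on the minus strand, Ifit1 at chr19:34640639-34640938 on the plus strand and Isg15 at chr4:156200769-156201068 on the minus strand.
Bst2: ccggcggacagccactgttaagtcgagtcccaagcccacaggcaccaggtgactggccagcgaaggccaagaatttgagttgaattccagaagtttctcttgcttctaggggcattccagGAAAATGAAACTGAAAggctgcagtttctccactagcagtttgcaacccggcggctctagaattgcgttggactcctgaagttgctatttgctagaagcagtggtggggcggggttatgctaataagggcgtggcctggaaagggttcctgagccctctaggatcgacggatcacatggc
Ifit1: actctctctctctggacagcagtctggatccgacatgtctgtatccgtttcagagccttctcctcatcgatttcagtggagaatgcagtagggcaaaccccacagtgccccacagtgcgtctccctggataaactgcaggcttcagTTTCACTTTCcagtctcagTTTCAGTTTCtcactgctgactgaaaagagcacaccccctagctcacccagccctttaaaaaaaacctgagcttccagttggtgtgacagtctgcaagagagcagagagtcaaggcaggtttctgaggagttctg
Isg15: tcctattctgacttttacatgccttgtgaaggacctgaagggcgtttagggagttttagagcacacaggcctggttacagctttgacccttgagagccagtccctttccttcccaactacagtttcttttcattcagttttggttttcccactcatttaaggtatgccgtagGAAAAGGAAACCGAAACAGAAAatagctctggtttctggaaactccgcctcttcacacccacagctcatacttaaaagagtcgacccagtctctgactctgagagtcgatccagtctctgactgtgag
Bst2 and Ifit1 hold 2 matches each and Isg15 holds 3. Of the 30 called genes, 20 had a promoter in the table and 14 of those (70%) held at least 1 match on either strand, against 1079 of 27025 genes with a promoter (3.99%) and 87 of 1432 genes called higher (6.08%). The list was made of known interferon response genes, a family that carries this element. The 70% therefore describes the list and is no evidence about these cells. A match is a description of the sequence, and binding was not measured.

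Transcription factors of the pathway were higher in -/-. Stat2 was at 244 RPM in -/-, 13.0 RPM in +/-, 22.6 RPM in +/+ and 26 RPM with USP28 (4.22, SE 0.31, adjusted p = 7.7e-39, Wald test with Benjamini-Hochberg adjustment). Irf9 was at 72.7 RPM in -/- and 8.56 RPM in +/- (3.08, SE 0.33), and Irf7, which is induced by interferon and amplifies its production, at 66.7 and 1.14 RPM (5.83, SE 0.47). The RNA sensors moved the same way: Ddx58 (RIG-I) was at 161 RPM in -/- and 17.1 RPM in +/- (3.23, SE 0.31), Ifih1 (MDA5) at 64.5 and 2.04 RPM (4.96, SE 0.40) and Dhx58 at 14.5 and 1.66 RPM (3.09, SE 0.43). Effector genes showed the largest ratios. Bst2 (tetherin), which holds budding virus at the cell surface, was at 331 RPM in -/-, 7.64 RPM in +/-, 40.3 RPM in +/+ and 48.7 RPM with USP28 (5.43, SE 0.33). Ifit1, which binds foreign RNA ends, was at 108 RPM in -/-, 0.682 RPM in +/-, 4.94 RPM in +/+ and 9.54 RPM with USP28 (7.23, SE 0.55). Ifit3 was at 80.9 and 0.755 RPM (6.67, SE 0.53). Isg15 was at 85.1 RPM in -/-, 0.303 RPM in +/-, 2.47 RPM in +/+ and 3.65 RPM with USP28 (7.97, SE 0.74), and Usp18, the protease that removes Isg15, at 74.4 and 0.378 RPM (7.49, SE 0.68). For these 5 effector genes +/- had the lowest level of the 4 Ras groups. Oas1a, an oligoadenylate synthetase gene, was at 39.8 RPM in -/- and 0 RPM in +/- (at least 175-fold higher), and Oasl2 at 111 and 0.378 RPM (8.06, SE 0.68). Ifit2 did not pass the test, at 64.8 RPM in -/-, 45.9 RPM in +/-, 43.0 RPM in +/+ and 43.9 RPM with USP28. In immortalized cells without HRas, 18 members could be tested and 0 were called at an adjusted p under 0.05 by the Wald test. No member was past an unadjusted p of 0.05 either. Of all genes tested in that set 4.58% were called, so a count of 0 among 18 is near that share. The immortalized median was -0.14, with Bst2 at 14.3 and 9.39 RPM and Isg15 at 1.23 and 1.53 RPM in -/- and +/-. The test of the difference between the sets called 16 of the 18 as larger in Ras cells. Of all genes tested in both sets it called 7.61% in either direction. The summed level of 12 leukocyte markers, tested or not, was 26.1 RPM in -/- and 36.3 RPM in +/-. Of the 5 tested, 0 were called higher and 2 lower, against 12.7% and 11.7% of all tested genes. Members under the level limit went both ways. Mpeg1 (1.5 and 0.227 RPM), Adgre1 (0.932 and 0.377 RPM) and Lyz2 (0.215 and 0 RPM) were higher in -/-. Ptprc, Aif1 and Laptm5 were lower, and Tyrobp was at 0 RPM in both. The part of such cells in the interferon response was not tested.

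**Figure D3:**
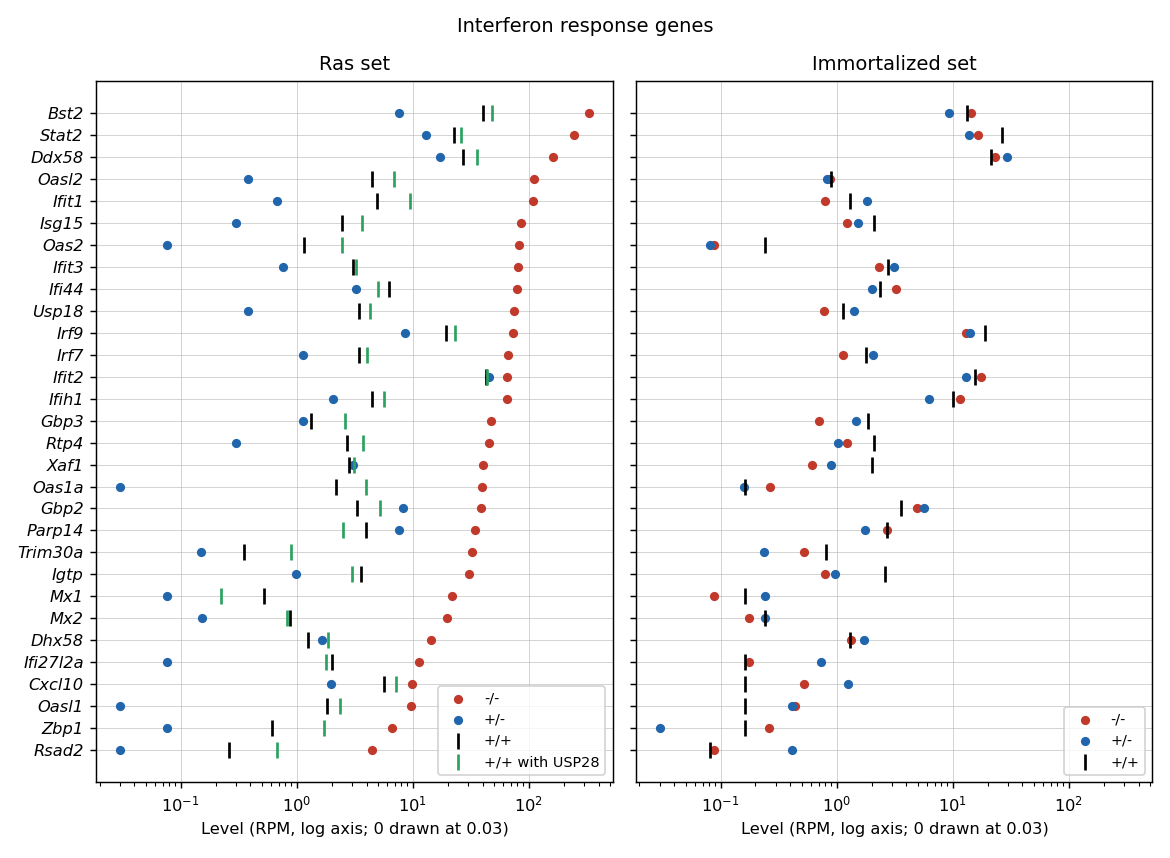
Level of 30 interferon response genes (RPM, log axis, 0 drawn at 0.03), sorted by the Ras -/- level, in the Ras groups (left) and in immortalized cells without HRas (right). Red is -/-, blue is +/-, black ticks are +/+ and green ticks the USP28 group. Ras -/- is the rightmost point for all genes on the left, and no such order is seen on the right.

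Genes of class I antigen presentation, which displays peptides to T cells, were called in both directions. Among 9 tested members 5 were called higher and 1 lower (median log2 difference 2.09), against 12.7% and 11.7% of all tested genes. Among the 5 with a mean of at least 5 RPM, 2 were higher and 1 lower (median 0.82). B2m, the invariant chain of class I molecules, was at 484 RPM in -/-, 114 RPM in +/-, 219 RPM in +/+ and 224 RPM with USP28 (2.09, SE 0.30), and H2-D1, a heavy chain, at 112 and 21.2 RPM (2.40, SE 0.31). Nlrc5, the transactivator of class I genes, was at 8.39 RPM in -/- and 0.227 RPM in +/- (log2 ratio 5.21, counting interval 3.63 to 7.51), and Tap1, a peptide transporter gene, at 6.81 and 0.378 RPM (4.04, SE 0.70). Psmb10, a subunit of the immunoproteasome, was lower at 17.3 and 31.3 RPM (-0.86, SE 0.32). Class I genes are closely related in sequence, and H2-D1, H2-K1, H2-Q4 and H2-T23 may share reads.

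Secreted inflammatory genes split. Of 24 tested members 8 were called higher and 10 lower in -/-, against 12.7% and 11.7% of all tested genes. Il1rl1, the receptor of interleukin 33, was at 1798 RPM in -/-, 13.0 RPM in +/-, 898 RPM in +/+ and 744 RPM with USP28 (7.10, SE 0.31). Its ligand gene Il33 ran the other way, at 0.143 RPM in -/-, 63.1 RPM in +/- and 0.177 RPM in +/+ (log2 ratio -8.78, counting interval -11.83 to -6.92). The +/- group thus stood apart from the other 3 Ras groups for receptor and ligand. Cxcl5, a neutrophil chemokine gene, was at 403 RPM in -/-, 3.47 RPM in +/-, 0.176 RPM in +/+ and 0 RPM with USP28 (6.84, SE 0.36), whereas Cxcl1 was lower (above). Saa3, an acute-phase protein gene, was at 0.358 RPM in -/- and 50.2 RPM in +/- (-6.99, SE 0.68). Cx3cl1, a membrane-bound chemokine gene, was higher at 95 and 11.8 RPM (3.00, SE 0.32). Ptgs2 (cyclooxygenase 2) was lower at 41.1 and 271 RPM, with 512 RPM in +/+ (-2.72, SE 0.30). Ccl2 and Csf1, the genes of a monocyte chemokine and a macrophage growth factor, did not pass the test (139.7 and 168 RPM, and 654 and 512 RPM).

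Markers of mesothelium, the epithelium-like lining of body cavities, fell. Of 13 tested members 12 were called lower and 0 higher in -/-, against 11.7% and 12.7% of all tested genes. The summed level of 14 members, 1 of them under the level limit, was 65.7 RPM in -/-, 2956 RPM in +/-, 548 RPM in +/+ and 599.8 RPM with USP28. In bulk RNA a smaller share of cells of a type and less RNA per cell cannot be told apart. Upk3b, a uroplakin of mesothelium, was at 0.717 RPM in -/-, 677 RPM in +/-, 0.264 RPM in +/+ and 0.521 RPM with USP28 (-9.81, SE 0.53). Upk1b was at 0.287 RPM in -/-, 557 RPM in +/- and 0.0878 RPM in +/+ (-10.75, SE 0.74), and Wt1, a transcription factor of mesothelium and its progenitors, at 0.502, 124 and 0.0882 RPM (-7.85, SE 0.60). These genes were high in +/- alone. Msln (mesothelin) had another order, at 5.09 RPM in -/-, 209 RPM in +/-, 425 RPM in +/+ and 466 RPM with USP28 (-5.35, SE 0.34). Cdh3 (P-cadherin) was at 0.358 RPM in -/-, 574 RPM in +/- and 6.35 RPM in +/+ (-10.51, SE 0.68). Gata6 and Gpm6a were lower as well (3.94 and 65.9 RPM, and 0.0717 and 94.2 RPM), and Gata4 did not pass the test (17.6 and 24.4 RPM). In immortalized cells 11 of the 13 were called lower in -/-, against 3.25% of all genes tested there. Upk3b, for example, was at 2.96 RPM in immortalized -/- and 508 RPM in immortalized +/-.

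Keratins accompanied them. Of 9 tested epithelial markers 8 were called lower and 0 higher. For this list and those of other cell types below, 11.7% of all tested genes were lower and 12.7% higher. On the epithelial list 9 of the 18 were under the level limit. Those under it included Epcam, at 0.143 RPM in -/- and 0.0757 RPM in +/-, and Cldn3 and Cldn4 at 0 RPM in both. Krt8 was at 0.215 RPM in -/-, 465 RPM in +/-, 0.263 RPM in +/+ and 0.149 RPM with USP28 (log2 ratio -11.08, counting interval -13.36 to -9.53), and its partner Krt18 at 0.0717, 202, 0 and 0.0745 RPM (-11.46, counting interval -16.76 to -8.98). Krt14, a keratin of basal epithelium, was at 0.215 RPM in -/-, 316 RPM in +/- and 0.176 RPM in +/+ (-10.52, counting interval -12.80 to -8.97). Krt19, which stands on both lists, was at 0.215 RPM in -/-, 461 RPM in +/-, 71.5 RPM in +/+ and 85.4 RPM with USP28. In immortalized cells 6 of the 8 tested epithelial markers were called lower in -/- and 0 higher. Of all genes tested in that set 3.25% were lower and 1.33% higher. There Krt14 was at 0.0878 RPM in -/- and 146 RPM in +/-, and Krt19, at 67.0 and 94.8 RPM, was not called. Cdh1 (E-cadherin), the defining adhesion gene of epithelia, was low in both groups at 0.717 and 2.65 RPM (-1.83, SE 0.59). Other cell types contributed fewer tested genes. Endothelial, muscle and neural lists had 2 called lower each of 4, 5 and 5 tested genes, with 1 called higher among the muscle markers, and Pecam1, the endothelial adhesion gene, was at 1.94 and 1.21 RPM. The part of a changed mix of cells in the differences reported here was not tested.

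Of 10 tested fibroblast markers 5 were called higher in -/- and 0 lower, against 12.7% and 11.7% of all tested genes. On this list 2 of the 12 were under the level limit. Pdgfrb, a receptor for platelet-derived growth factor, was at 174 RPM in -/-, 7.06 RPM in +/-, 54.9 RPM in +/+ and 44.9 RPM with USP28 (4.61, SE 0.33), and Pdgfra, the second receptor, at 90.9 and 22.2 RPM (2.03, SE 0.31). Twist1, a mesenchymal transcription factor gene, was at 51.9 and 19.5 RPM (1.41, SE 0.31). Of 12 contractile genes 9 were called higher and 1 lower. Their median log2 difference was 1.31. Myl9, a regulatory myosin light chain gene, was at 315 RPM in -/-, 1.36 RPM in +/-, 126 RPM in +/+ and 87.3 RPM with USP28 (7.82, SE 0.45). Acta2 (smooth muscle actin) was at 1515 RPM in -/-, 399 RPM in +/-, 2769 RPM in +/+ and 3016 RPM with USP28 (1.92, SE 0.29), and Tagln (transgelin) at 422, 73.9, 1129 and 1256 RPM (2.51, SE 0.30). For Acta2 and Tagln -/- stood between +/- and +/+, and for Myl9 it stood above both. Mylk, the kinase of myosin light chains, was lower at 25.5 and 48.1 RPM (-0.91, SE 0.31). In immortalized cells 0 contractile genes were called higher and 1, Actg2, lower, at an adjusted p under 0.05 by the Wald test (0 higher and 2 lower at an unadjusted p under 0.05). Of all genes tested in that set 1.33% were higher and 3.25% lower, so these counts are near the background. The difference between the sets was called for 5 of 12, against 7.61% of all genes tested in both sets.

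Matrix genes were called in both directions. Of 20 collagens 8 were called higher and 7 lower. The fibrillar collagen gene Col3a1 was at 1145 RPM in -/-, 199 RPM in +/-, 292 RPM in +/+ and 225 RPM with USP28 (2.53, SE 0.29), and Col5a2 at 1446 and 609 RPM (1.25, SE 0.29). Genes of the basement membrane collagens were among the lower. Col4a1 was at 530.3 RPM in -/- and 1475 RPM in +/- (-1.48, SE 0.29), Col4a2 at 474 and 980.4 RPM (-1.05, SE 0.29), Col4a5 at 119 and 213 RPM, and Col4a6 at 3.80 and 121 RPM (-4.98, SE 0.35). The subunits of type VI collagen were split, with Col6a3 higher at 438 RPM in -/-, 0.831 RPM in +/- and 42 RPM in +/+ (8.98, SE 0.52), while Col6a1 (279 and 625 RPM) and Col6a2 (127 and 424 RPM) were lower. Of 25 other matrix genes 12 were called higher and 5 lower. Tnn (tenascin N) was at 66.2 RPM in -/- and 0.151 RPM in +/- (log2 ratio 8.78, counting interval 6.92 to 11.82), and the elastic fibre genes Fbln5 and Fbn2 were at 539 and 54.0 RPM (3.32, SE 0.30) and at 106 and 9.15 RPM (3.53, SE 0.32). Efemp1 (fibulin 3) ran the other way at 0.143 and 196 RPM (log2 ratio -10.41, counting interval -13.46 to -8.56), as did Loxl2, a collagen crosslinking enzyme gene, at 1.22 and 236 RPM (-7.56, SE 0.45). Cartilage markers had 3 of 10 called higher and 0 lower, led by Sox6 at 15.9 and 1.44 RPM. Sox9, the chondrocyte transcription factor gene, was at 9.61 and 13.9 RPM and did not pass.

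Hox genes encode the transcription factors that give position along the body axis and the limb, and their order on the chromosome follows the order of their domains, with low paralogue numbers anterior and high numbers posterior or distal. Of 22 tested Hox genes 7 were called higher and 14 lower in -/-, against 12.7% and 11.7% of all tested genes. On this list 16 of the 39 were under the level limit. The direction followed the paralogue number in the a and d clusters. Hoxa9, Hoxa10, Hoxa11, Hoxa13, Hoxd10, Hoxd11 and Hoxd13 were higher, and Hoxa2, Hoxa3, Hoxa5, Hoxa6, Hoxa7, Hoxd3 and Hoxd9 were among the lower. Hoxd13, a gene of the distal limb, was at 201 RPM in -/-, 0.0757 RPM in +/-, 136 RPM in +/+ and 167 RPM with USP28 (log2 ratio 11.37, counting interval 8.89 to 16.68). Hoxa11 was at 97.2, 0.0756, 56.9 and 58.1 RPM in the same order (10.33, counting interval 7.85 to 15.63), and Hoxd11 at 70.7, 0, 44.6 and 48.0 RPM (at least 312-fold higher in -/- than in +/-). Hoxa10 was at 114 and 8.10 RPM (3.80, SE 0.33). For these 4 genes the +/- group alone was low among the Ras groups. On the other side, Hoxd3 was at 2.51 RPM in -/-, 20.7 RPM in +/- and 1.77 RPM in +/+ (-3.03, SE 0.39), Hoxb4 at 0 RPM in -/-, 13.0 RPM in +/- and 0.265 RPM in +/+ (at least 60.7-fold lower), and Hoxa3 at 2.44, 19.9 and 24.8 RPM (-3.01, SE 0.39). The tested b and c cluster genes (Hoxb2, Hoxb3, Hoxb4, Hoxc4, Hoxc6 and Hoxc13) were lower, including Hoxc13 despite its high number, at 0 and 28.3 RPM. Hoxd8 did not pass the test. In immortalized cells the 22 genes had the same signs, with 5 called higher and 6 lower, against 1.33% and 3.25% of genes tested there. The Ras difference was called larger or smaller than the immortalized for 11, against 7.61% of genes tested in both sets.

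**Figure D4:**
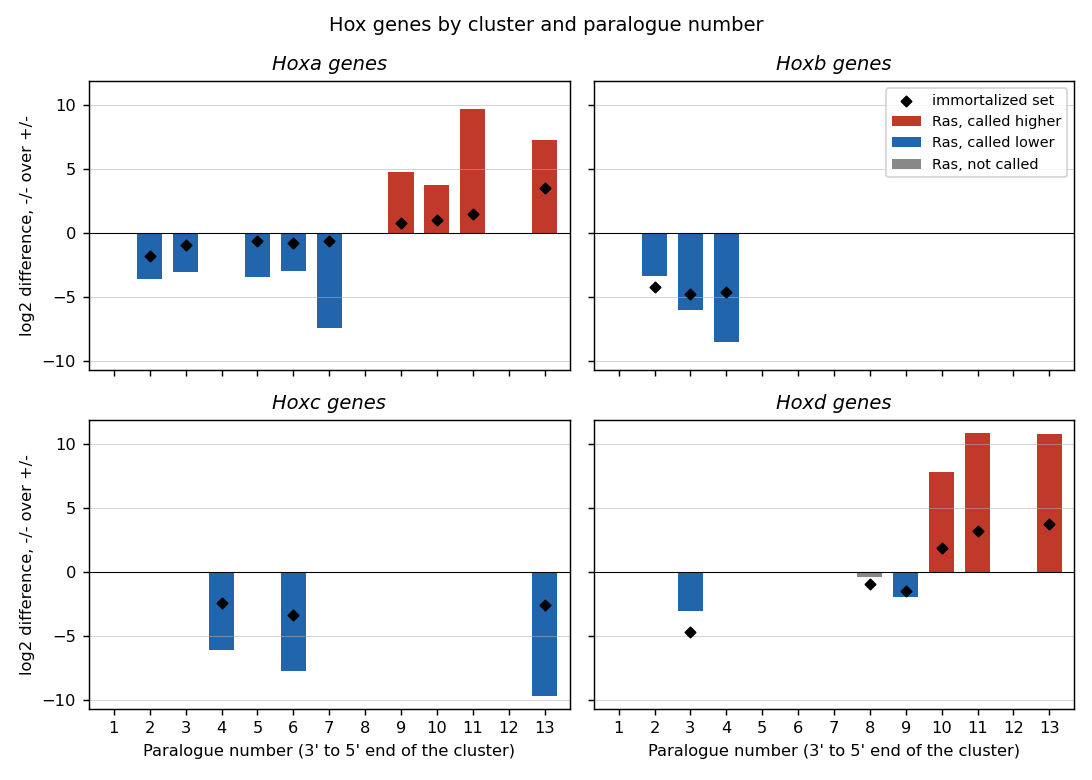
log2 difference between -/- and +/- for 21 of the 22 tested genes of the 4 Hox clusters, by paralogue number. Bars are Ras cells, red for called higher, blue for called lower and grey for not called, and black diamonds are immortalized cells without HRas. In the a and d clusters the bars turn from below 0 to above 0 between paralogues 7 and 10, and all tested b and c bars lie below 0.

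Other patterning factors of limb and skin were mostly higher, with 15 of 24 tested members called higher and 2 lower. Of all tested genes 12.7% were higher and 11.7% lower. Tfap2b, a transcription factor gene of neural crest and limb, was at 143 RPM in -/-, 0.151 RPM in +/-, 125 RPM in +/+ and 114 RPM with USP28 (log2 ratio 9.88, counting interval 8.03 to 12.93). Lhx9, a limb bud gene, was at 144, 0.454, 28.6 and 33.0 RPM (8.19, SE 0.64), and Tfap2a at 57.8, 0, 26 and 19.5 RPM (at least 255-fold higher in -/- than in +/-). Tbx5, the forelimb gene, was at 33.7 and 0.0757 RPM (8.80, counting interval 6.31 to 14.11), and the hindlimb gene Tbx4 was at 28.5 and 0 RPM (at least 126-fold higher), with 12.1 and 0.0882 RPM in +/+. Prrx1, a limb mesenchyme factor gene, was at 431 and 326 RPM and did not pass.

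Signalling genes differed in both directions. Among BMP and TGF-beta ligands, antagonists and targets 11 of 29 were called higher and 6 lower, against 12.7% and 11.7% of all tested genes. Of the ligands, Bmp2 was at 170.5 RPM in -/-, 0.0756 RPM in +/- and 0 RPM in +/+ and with USP28 (log2 ratio 11.14, counting interval 8.66 to 16.44), and Bmp4 was at 127 and 93.5 RPM and did not pass. The antagonist gene Grem1 was at 694 RPM in -/-, 13.9 RPM in +/-, 358 RPM in +/+ and 328 RPM with USP28 (5.63, SE 0.31), and the activin-binding Fst at 113 and 30.1 RPM (1.91, SE 0.30). Ltbp2, which encodes a matrix protein of the latent TGF-beta binding family, was at 768 RPM in -/-, 4.31 RPM in +/- and 3.22 RPM in +/+ (7.46, SE 0.35). Of the target genes, Id1 was lower at 57.9 and 136 RPM (-1.23, SE 0.30), and Smad6 and Smad7 did not pass. Bmp2 and Ltbp2 were high in -/- alone, whereas Grem1 was low in +/- alone.

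Among Wnt genes 8 of 27 were called higher and 12 lower, against 12.7% and 11.7% of all tested genes. Rspo2, which strengthens Wnt signals at the receptor, was at 494 RPM in -/-, 0.227 RPM in +/-, 1.95 RPM in +/+ and 2.53 RPM with USP28 (log2 ratio 11.09, counting interval 9.54 to 13.37). The secreted inhibitors Sfrp2 and Dkk2 were at 109 and 1.66 RPM (6.00, SE 0.42) and at 51.3 and 0.151 RPM (8.4, counting interval 6.55 to 11.45), and the receptor gene Fzd5 at 103 and 10.4 RPM (3.30, SE 0.32). The called Wnt ligands were all lower: Wnt4, Wnt5a, Wnt6, Wnt7b, Wnt9a, Wnt10a and Wnt11, for example Wnt5a at 8.60 and 32.4 RPM (-1.91, SE 0.33) and Wnt11 at 0.358 and 9.28 RPM (-4.56, SE 0.69). Axin2, a common target of the pathway, was at 0.573 and 2.05 RPM (-1.78, SE 0.64).

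Growth factors and their receptors had 7 of 31 called higher and 13 lower, against 12.7% and 11.7% of all tested genes. Fgf7 and Fgf10, which encode fibroblast growth factors that act on epithelium, were at 233 and 1.06 RPM (7.74, SE 0.48) and at 109.9 and 0.227 RPM (log2 ratio 8.92, counting interval 7.37 to 11.20), with 128 and 41.0 RPM in +/+. Pdgfd was at 55.3 and 3.93 RPM (3.80, SE 0.36). Fgf5 fell, at 0.143 RPM in -/-, 83.7 RPM in +/- and 0 RPM in +/+ (log2 ratio -9.19, counting interval -12.24 to -7.33). The receptor genes Egfr and Met were lower at 15.7 and 57.7 RPM (-1.88, SE 0.31) and at 84.2 and 262 RPM (-1.64, SE 0.30). Of 8 imprinted growth genes 4 were called higher and 2 lower. Grb10, an inhibitor of receptor signalling, was at 554 RPM in -/-, 70.1 RPM in +/-, 194 RPM in +/+ and 87.4 RPM with USP28 (2.98, SE 0.30). The neighbours Peg10 and Sgce were at 61.2 and 0.0756 RPM and at 33.1 and 0.605 RPM, and Peg3 was lower at 19.1 and 60.6 RPM (-1.67, SE 0.31), with 0 RPM in +/+.

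Output genes of the Ras-MAPK pathway were called in both directions, 4 higher and 4 lower of 22, against 12.7% and 11.7% of all tested genes. The phosphatase genes Dusp4, Dusp5 and Dusp6, which are induced by ERK and switch it off, were the largest falls. Dusp6 was at 35.9 RPM in -/-, 214 RPM in +/-, 32.0 RPM in +/+ and 38.4 RPM with USP28 (-2.58, SE 0.30). Dusp4 was at 1.58, 28.8, 3.72 and 3.28 RPM (-4.16, SE 0.43), and Dusp5 at 8.32, 43.6, 39.9 and 48.2 RPM (-2.39, SE 0.33). For Dusp4 and Dusp6 the +/- group stood above the other 3. Phlda1, Dusp7, Etv1 and Etv5 were higher, and Ccnd1, Ereg, Spry2 and Etv4 did not pass. In immortalized cells Dusp4 and Dusp6 were lower as well (3.20 and 47.4 RPM, and 17.3 and 98.8 RPM). Of the 22, 2 were called higher with folds centred on chromosome neighbours, 1 with 2 times the dispersion and 7 with the mean of the 2 dispersions. Immediate-early genes had 3 of 25 called higher (Egr1, Jun and Srf) and 5 lower, led by Klf4 at 21.3 and 88.3 RPM (-2.05, SE 0.31). Those counts became 5 higher and 3 lower with centring on neighbours, and 1 and 1 with 2 times the dispersion.

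Of 24 genes of G2 and mitosis 4 were called higher (Ccna2, Ect2, Cdc20 and Ccnb1) and 0 lower. Among all tested genes the shares were 12.7% higher and 11.7% lower. Ccna2, the cyclin of S and G2 phase, was at 236 RPM in -/- and 103 RPM in +/- (1.19, SE 0.30), and Mki67, the proliferation marker, was at 459 and 303 RPM and did not pass. In immortalized cells 8 of the 24 were called higher, against 1.33% of all genes tested there. In Ras cells 1 was called higher with folds centred on chromosome neighbours or with 2 times the dispersion. The mean of the 2 dispersions gave 9 called higher in Ras cells. Of 35 E2F and replication genes 1 was called, Prim1, a primase subunit, at 107 and 45.3 RPM (1.23, SE 0.30). With the mean of the 2 dispersions 2 of the 35 were higher and 7 lower. The p53 targets had 5 of 23 higher and 3 lower, against the same 12.7% and 11.7%, and 1 in each direction after centring on neighbours. Cdkn1a and Mdm2, the best known targets, were at 177 and 168 RPM and at 201 and 181 RPM. Plk2 was lower at 161 and 404 RPM (-1.33, SE 0.30). Cdkn2a, the locus whose p19ARF product was targeted by the hairpin in all groups, was at 12.7 RPM in -/-, 56.8 RPM in +/-, 12.9 RPM in +/+ and 12.8 RPM with USP28 (-2.16, SE 0.32), and the table does not separate its transcripts. Cdkn1b and Rb1, genes of a CDK inhibitor and of the retinoblastoma protein, were higher by 1.2 and 1.17 (SE 0.30 and 0.31), and Cdk6 was lower at 15.3 and 65.9 RPM (-2.10, SE 0.31).

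Of 13 genes of Usp28, its ligase and their partners 0 were called in either direction at an adjusted p under 0.05 by the Wald test or by the exact negative binomial test (0 higher and 1 lower at an unadjusted p under 0.05). Fbxw7 was at 27.0 RPM in -/-, 20.6 RPM in +/-, 27.1 RPM in +/+ and 30.5 RPM with USP28 (0.39, SE 0.31, adjusted p = 0.415, Wald test with Benjamini-Hochberg adjustment). Genes of Fbw7 substrates had 3 of 25 called higher and 5 lower, against 12.7% and 11.7% of all tested genes. Myc was at 149 RPM in -/-, 245 RPM in +/-, 161 RPM in +/+ and 170 RPM with USP28 (-0.71, SE 0.30) and did not pass, nor did Ccne1 (40.4 and 35.6 RPM). Jun was higher at 145 and 68.4 RPM (1.08, SE 0.30), with 256 RPM in +/+. Notch1 was higher at 37.7 RPM in -/- and 8.71 RPM in +/- (2.11, SE 0.33) and Notch3 at 14.8 and 1.97 RPM (2.89, SE 0.42), whereas Notch2 was lower at 115 and 198 RPM (-0.78, SE 0.30). Over the Notch list 5 of 14 were higher and 4 lower. The ligand genes Jag1 and Jag2 were lower (16.1 and 40.5 RPM, and 0.215 and 50.9 RPM), and of the target genes Hes1 was lower at 5.23 and 23.8 RPM and Hey1 higher at 6.31 and 0.905 RPM. Growth genes induced by Myc, mainly of ribosome assembly, had 9 of 38 called lower and 0 higher. Of all tested genes 11.7% were lower and 12.7% higher. The median of these growth genes was -0.29. Among them Nolc1, a nucleolar phosphoprotein gene, was at 163 RPM in -/- and 448 RPM in +/- (-1.46, SE 0.30), and Mybbp1a, a nucleolar protein gene, at 289 and 673 RPM (-1.22, SE 0.29). With folds centred on chromosome neighbours 2 of the 38 were lower, and with 2 times the dispersion 4 were. The called falls of Fbw7 substrate genes went from 5 to 1 and to 3 under the same alternatives.

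Among metabolic genes, those of the sterol pathway make cholesterol. Of 25 sterol synthesis genes 6 were called higher and 2 lower, and centring on neighbours raised the first count to 10. For this list and the next ones, the shares of all tested genes were 12.7% higher and 11.7% lower. Idi1, an isomerase of the isoprenoid pathway, was at 68.0 and 24.1 RPM (1.5, SE 0.31). Among 27 genes of glycolysis and hypoxia 10 were called higher and 5 lower, including the carbonic anhydrase gene Car12 at 64.7 and 2.81 RPM (4.51, SE 0.38) and the mitophagy gene Bnip3 at 17.8 and 1.90 RPM (3.20, SE 0.42). Vegfa, the vascular growth factor gene, was lower at 71.4 and 137 RPM (-0.94, SE 0.30). Stress response genes of the endoplasmic reticulum and amino acid shortage had 6 of 24 called higher and 0 lower, or 3 higher after centring. With 2 times the dispersion the higher counts of these lists became 2 for sterol synthesis, 5 for glycolysis and hypoxia and 2 for stress genes. Trib3 and Ddit3 (CHOP) led at 35.2 and 6.95 RPM (2.33, SE 0.34) and at 66.2 and 19.5 RPM (1.76, SE 0.31), while Hspa5 (BiP) was at 866 and 986 RPM. Of 39 cytoplasmic ribosomal protein genes 1, Rpl27, was called, lower at 51.7 and 116 RPM. Of 35 respiratory chain genes 1 was higher and 2 lower. RNAs that lack poly(A) tails or are short differed between groups that were all selected for poly(A): Rn7sk was at 1.58 RPM in -/-, 7.54 RPM in +/-, 27.2 RPM in +/+ and 3.73 RPM with USP28, and the summed level of such RNAs and histones was 68.5, 38.0, 114 and 20.7 RPM.

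The Ras +/+ group gives another point for each called gene. Of the 2052 genes higher in -/- than in +/-, the +/+ level lay between the 2 for 60.9%, below both for 19.5% and above both for 19.6%. Of the 1887 lower genes it lay between for 59%, below both for 31% and above both for 10%. Both comparisons behind the levels used the same +/+ libraries, whose levels agreed to a median of 0.0001 on the log2 scale. The +/- level was therefore the middle of the 3 for 19.5% of the higher and 10% of the lower genes.

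In the immortalized set, which holds the same genotypes without HRas, 779 of 17007 tested genes were called (4.58%), 227 higher (1.33%) and 552 lower (3.25%), with a coefficient of variation of 39.1% and a median SE of 0.48, against 20.3% and 0.32 in the Ras set, so the numbers of calls do not compare the sizes of the differences. Of genes tested in both sets, 113 were higher in both, which is 5.9% of the Ras calls in that direction and 66.1% of the immortalized calls. Another 274 were lower in both (15.6% and 72.5%). Opposite calls were found for 20 genes higher in Ras and lower in immortalized cells and for 9 the other way. Dmpk, a kinase gene of muscle, was at 72.0 and 14.3 RPM in Ras -/- and +/- but at 36.5 and 166 RPM in immortalized cells, and Prg4 (lubricin) was at 5.88 and 28.7 RPM in Ras but at 36.2 and 12.7 RPM in immortalized cells. Across 15332 genes the log2 differences of the sets had a Pearson r of 0.484 and a Spearman rho of 0.237, given as a description, since genes of a group share libraries and depth. The difference between the sets was itself called for 1167 of those genes (7.61%), with 710 more positive and 457 more negative in Ras cells. Whether the Ras cells were made from the immortalized cultures is not given in the labels.

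Differences between -/- and +/- were also uneven along the chromosomes. Coordinates are from GENCODE M21 on GRCm38 and were matched by gene, since the authors' files carry none. On chromosome 19, 215 of 517 tested genes were called lower and 23 higher, 84.3% of the genes lay below 0, and the median log2 difference was -0.66. The median of -/- over +/+ there was -0.16 and that of +/- over +/+ was 0.49. On chromosome 10, the 355 tested genes between 79793572 and 130413309 included 135 called higher and 20 called lower, and their median was 0.63 (0.55 for -/- over +/+ and -0.06 for +/- over +/+), against a median of 0.13 for the 285 genes between 3740364 and 71433327. On chromosome 3, the 216 genes between 3791898 and 79603650 had 95 higher and 11 lower and a median of 0.73, where +/- over +/+ had a median of -0.54, and the 428 genes between 89183143 and 159938664 had a median of -0.16. On chromosome 8, the 632 genes between 3122061 and 109693260 had 46 higher and 151 lower and a median of -0.39. The shifts on chromosomes 3 and 19 were thus mostly seen in +/- against +/+, and that on chromosome 10 mostly in -/- against +/+. On this stretch of chromosome 8 the medians over +/+ were -0.35 for -/-, 0.03 for +/- and -0.16 for the USP28 group. The part of the +/+ libraries in the chromosome 8 shift was not tested. With each chromosome cut into 10 blocks of equal gene number, 24 of 200 blocks had a median beyond 0.4 in either direction in Ras cells against 1 in immortalized cells, and the Ras medians ran from -0.96 to 0.89. The stretches of chromosomes 3, 8 and 10 given above are runs of such blocks, chosen after the block medians were seen. On chromosomes 3 and 10 the block between the stretches compared was left out, with a median of 0.13 and 0.29. The contrasts between stretches therefore describe the chosen cuts and are no test. Over the whole of chromosomes 3, 8 and 10 the medians were 0.07, -0.27 and 0.42. DNA copy number was not measured here. When each gene was set against the running median of 101 neighbours, an alternative chosen after the pattern was seen, 3359 genes were called (1801 higher and 1558 lower), of which 2979 were among the 3939, and chromosome 19 had 62 higher and 55 lower.

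**Figure D5:**
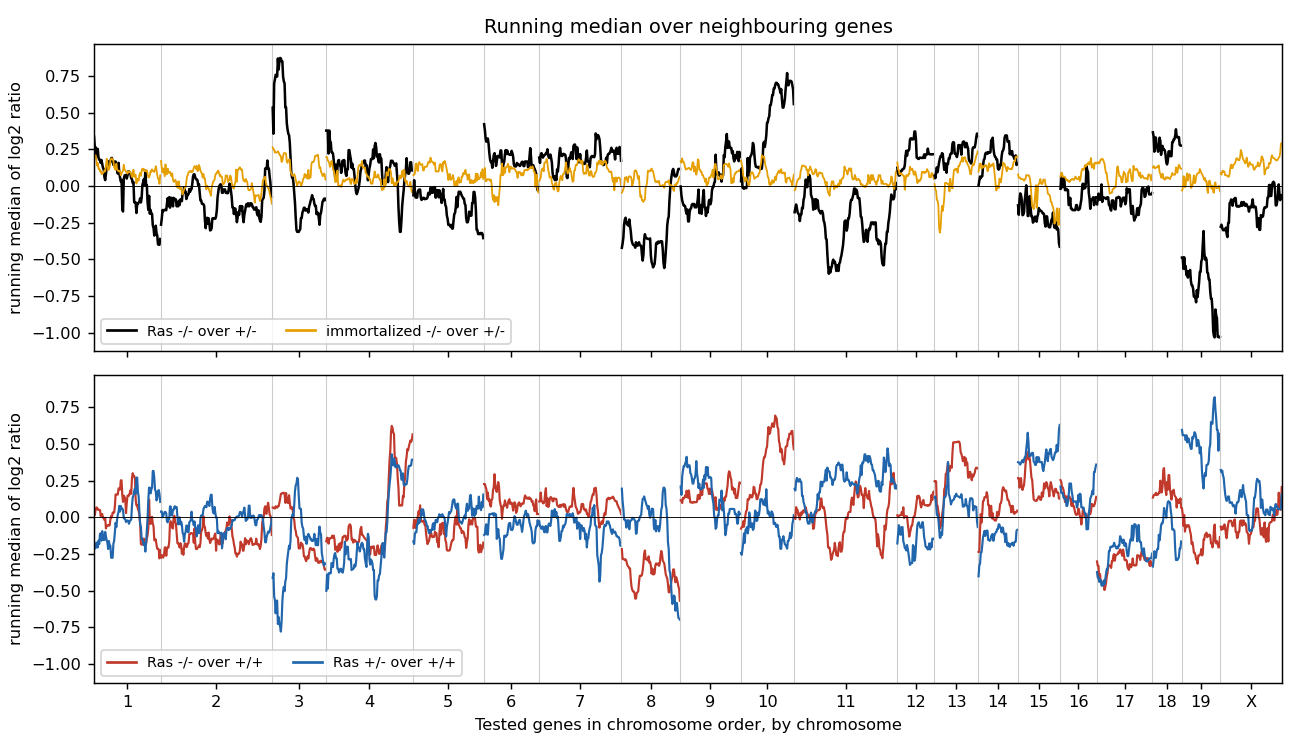
Running median of log2 ratios over 101 tested genes in chromosome order, for chromosomes 1 to 19 and X. The upper panel shows -/- over +/- in Ras cells (black) and in immortalized cells (orange), the lower panel Ras -/- over +/+ (red) and Ras +/- over +/+ (blue). The black line goes beyond 0.5 in either direction on chromosomes 3, 8, 10, 11 and 19, and is lowest on chromosome 19.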

How the data were processed

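Poly(A) RNA of 17 libraries was read on an Illumina GAIIx. The labels' protocols name NEBNext Library Prep and NEBNext Ultra without saying which library had which. The submitters' processing notes list CASAVA, FastQC, Bowtie 0.12.8, the mm9 build and edgeR. What the authors deposited is, per the file headers, 1 line per gene and comparison with a log2 concentration, a log2 ratio (+/+ divided by the compared genotype), a p-value and, in the Ras table, an adjusted p-value. The annotation, strand setting and filters are not given in the sources used here.

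After 24 repeated lines were dropped from the Ras table, group levels in RPM were computed as 2 to the power of the log2 concentration minus the log2 ratio divided by 2, times 1000000. Low levels lie on steps of 1 read, which gave the scaled depth of each group. Of the -/- and +/- levels under 20 reads, 100% were within 0.1 of a whole number. A read is 0.0717 RPM in -/- and 0.0756 RPM in +/-. Depth limits a group at 0 to under 3 reads, or 0.215 and 0.227 RPM.

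No spread per gene can be had from these files. The dispersion of each comparison was fitted to the deposited p-values (coefficient of variation 14.4% for -/- and 14.3% for +/- against +/+), and the sum of the 2 dispersions was used for -/- against +/- in a Wald test on the log2 difference with 0.5 reads added to each group. Genes with a mean of at least 1 RPM were tested, with Benjamini-Hochberg adjustment over all of them and a call at an adjusted p under 0.05. A group at 0 gives a bound against 3 reads, and 1 to 3 reads give a ratio with an exact 95% binomial interval. The difference between Ras and immortalized cells was tested the same way. Python 3.11.15, numpy 2.4.6, scipy 1.17.1 and pandas 2.3.3 were used.

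Named genes were the 12 largest rises and 12 largest falls among called genes with a mean of at least 5 RPM, the 5 most abundant called genes in each direction, Usp28, Fbxw7, Hras, Xist, Eif2s3y and Ddx3y, and the 4 called members with the smallest p in each of 38 lists. Other members named were chosen after their values were seen. The genes compared and the lists were chosen with earlier results of these data known. Symbols came from GENCODE M21 and were found for 98.8% of the tested genes. Some members that the lists count are not reported by name here.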

Additional observations from a re-analysis of the deposited data

Results flagged for a closer look

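The difference between -/- and +/- was compared between Ras and immortalized cells by a test of the difference itself (a Wald test with Benjamini-Hochberg adjustment), and 1167 genes passed. Values are the Ras log2 difference minus the immortalized one, and where a group is at 0 or near it they depend on the 0.5 reads added and are no bound. Among the largest rises, the difference was 12.83 for Gpnmb, 12.05 for Postn, 11.34 for Plpp3, 10.18 for Rspo2, 9.20 for Hoxa11os, 8.83 for Cyp26b1, 8.17 for Adm, 7.61 for Hoxd11, and 6.98 for both Hoxd13 and Tfap2a. Among the largest falls it was -13.61 for Cxcl1, -10.34 for Krt19, -9.64 for Cyp1b1, -9.31 for Wnt10a, -8.99 for Zcchc3, -8.80 for Cdh3, -5.39 for Ptgis, -4.54 for Krt18 and -3.88 for Upk1b. For Xist it was -5.44, and for the abundant genes Igfbp4, Cmss1 and Filip1l it was -2.07, -2.24 and -2.29. Cxcl1 was called in opposite directions in the sets: it was at 0 and 84.0 RPM in Ras -/- and +/- and at 4.06 and 0.730 RPM in immortalized -/- and +/-.

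Over all genes tested in both sets 7.61% passed. By list, the difference passed for 16 of 18 interferon response genes, 12 of 24 limb and skin patterning factors, 12 of 30 growth factors and receptors, 11 of 22 Hox genes, 11 of 25 matrix proteins other than collagen, 9 of 20 chemokines and secreted inflammatory genes, 9 of 23 Wnt genes, 8 of 28 BMP and TGF-beta genes, 7 of 20 collagens, 6 of 13 mesothelial markers, 6 of 27 glycolysis and hypoxia genes, 6 of 8 imprinted growth genes and 5 of 12 contractile genes. Only lists with at least 5 such genes are given.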

How the results depend on the processing

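With the mean of the 2 dispersions in place of their sum, 2902 genes were called lower and 5908 in all, and with 2 times the dispersion 1261 were called higher, 1160 lower and 2421 in all. The count of genes whose effect differed between Ras and immortalized cells became 2139 and 626 under these settings. An exact negative binomial test called 3880 genes, no filter on level 3765, a filter of 5 RPM 3073, 2 reads added 3873, centring on the median gene 3951, the plain difference of the deposited log2 ratios 3989, and an adjusted p under 0.01 2795. Centring on chromosome neighbours called 3359, with 960 of the 3939 lost and 0 turned. Of 159 named genes, 0 changed direction under any of these settings, and 150 were present with the filter of 5 RPM. Only added reads, centring and the plain difference of log2 ratios alter a fold, so the other settings could not turn a direction. The call was lost by 21 named genes when centred on neighbours, 18 with 2 times the dispersion and 10 at the stricter threshold. A filter of 5 RPM took 14 called falls of Hox genes to 7 and 12 of Wnt genes to 4, since fewer genes were tested. No paired analysis was possible because the tables hold no values for single libraries, and for the same reason leaving out each replicate was not run. Depth limits genes near 1 RPM, where 1 read is 0.0717 to 0.0756 RPM.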

Other observations

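Several genes that other Ras groups expressed were listed at 0 in 1 genotype. In +/-, Sall1, a zinc finger gene of limb and kidney, was listed at 0 against 42.1 RPM in -/-, 47.2 RPM in +/+ and 41.4 RPM with USP28, and Mapk13, a p38 kinase gene, at 0 against 26.9, 38.5 and 50.4 RPM. Repin1, a zinc finger gene, was at 0 in +/- and at 30.0 RPM in -/-, 27.3 RPM in +/+ and 33.4 RPM with USP28. In -/-, Emx2, a homeobox gene, was listed at 0 against 20.9 RPM in +/-, 57.3 RPM in +/+ and 64.9 RPM with USP28. These 4 genes were chosen after their values were seen.

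Among genes called in opposite directions in the 2 sets, Ifi27l2b, an interferon-induced gene, was at 11.8 RPM in Ras -/- and 0.227 RPM in Ras +/-, but at 0.619 RPM in immortalized -/- and 14.2 RPM in immortalized +/-. Megf10, a receptor gene for engulfment, was at 13.6 and 0.454 RPM in Ras cells and at 1.78 and 27.5 RPM in immortalized cells. Pdgfb, a platelet-derived growth factor gene, was at 21.7 and 38.1 RPM in Ras cells and at 11.9 and 2.58 RPM in immortalized cells. The difference between the sets passed for each of these 3 genes.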
